A study of Mus musculus with 6 samples.

Results

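RNA from whole testes of mice at postnatal day 4 was examined for 33 imprinted genes that lie outside the Igf2 and Dlk1 loci, out of 54232 genes in the count table. The genes were chosen by their GENCODE symbols, and all 33 were found. Of these, 21 are described in mouse as expressed from the paternal allele and 8 from the maternal allele. The other 4 (Gnas, Blcap, Ube3a and Trappc9) were set apart as dependent on the tissue or the transcript. The expressed allele was not measured here for any gene, so a described class need not hold in these testes. The 33 genes lie in 15 loci. The groups were 3 samples labelled Dis3l2 cKO (conditional knockout) and 3 labelled Dis3l2 WT, all with the strain given as B6D2F1. Which exons were deleted and by which Cre is not in the labels, nor is it stated if a group's samples are different animals. The p-values therefore set the difference between the groups against the spread among these samples only, and some of that spread may be technical. If samples of a group came from the same animal, the p-values do not extend to other animals.

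Imprinted genes are transcribed mainly from the copy inherited from a single parent. The choice is set by DNA methylation that is laid down at control regions in egg or sperm, kept in somatic cells and erased in the fetal germ line. Many of these genes act on fetal growth, and many are strongly expressed in fetal and newborn tissues and decline afterwards. DIS3L2 is an exoribonuclease that degrades RNAs with an oligouridine tail, and its loss in humans causes Perlman syndrome, a fetal overgrowth disorder. The counts were not split by parental allele, so they give the sum of both copies.

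Promoter sequences were available from RefSeq (build GRCm38.p6, 250 bases before to 50 after the start) for 26 of the 33 genes. They were searched on both strands for TGCCGC, the letters bound by ZFP57, a zinc finger protein that keeps methylation at imprinted control regions. Shown here is a promoter of each gene that changed in cKO testes and has an entry. These are Nnat (chr2:157559828-157560127, plus strand), Mest (the second of its 3 listed promoters, chr6:30737800-30738099, plus strand) and Gnas (the first of its 4, chr2:174327499-174327798, plus strand), which were higher, and Ascl2 (chr7:142969215-142969514, minus strand), which was lower. Capitals mark TGCCGC or its reverse complement.
Nnat: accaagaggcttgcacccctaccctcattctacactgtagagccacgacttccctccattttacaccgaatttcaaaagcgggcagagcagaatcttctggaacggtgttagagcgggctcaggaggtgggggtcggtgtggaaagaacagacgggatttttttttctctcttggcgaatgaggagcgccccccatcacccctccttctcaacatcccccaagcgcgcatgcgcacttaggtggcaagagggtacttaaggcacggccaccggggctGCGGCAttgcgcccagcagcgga
Mest: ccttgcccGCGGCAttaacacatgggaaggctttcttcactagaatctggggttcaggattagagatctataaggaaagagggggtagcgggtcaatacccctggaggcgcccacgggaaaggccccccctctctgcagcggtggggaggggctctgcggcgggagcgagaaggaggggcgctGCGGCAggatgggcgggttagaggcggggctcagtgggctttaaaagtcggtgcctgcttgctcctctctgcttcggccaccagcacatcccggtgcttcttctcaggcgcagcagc
Gnas: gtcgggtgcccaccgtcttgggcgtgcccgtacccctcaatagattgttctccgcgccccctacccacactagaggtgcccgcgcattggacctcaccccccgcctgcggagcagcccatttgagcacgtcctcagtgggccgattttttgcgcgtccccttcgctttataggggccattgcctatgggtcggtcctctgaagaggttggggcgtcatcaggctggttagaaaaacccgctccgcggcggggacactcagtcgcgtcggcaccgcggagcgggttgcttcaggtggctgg
Ascl2: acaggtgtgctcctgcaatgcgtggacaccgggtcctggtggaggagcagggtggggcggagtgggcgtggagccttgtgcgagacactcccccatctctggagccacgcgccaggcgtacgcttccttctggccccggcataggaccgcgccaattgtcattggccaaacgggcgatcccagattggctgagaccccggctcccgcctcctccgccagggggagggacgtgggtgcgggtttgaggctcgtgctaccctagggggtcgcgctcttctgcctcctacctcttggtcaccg
The Mest promoter shown held these letters at 2 places and its first listed promoter at 0, the Nnat promoter held them at 1 place, and all 4 Gnas promoters and the Ascl2 promoter at 0. Over all imprinted genes, 9 of 39 listed promoters had them (23.1%), or 7 of 36 windows with overlapping promoters merged (19.4%), against 11.6% of all 32851 promoters. By gene these were 6 of 16 paternally expressed, 2 of 7 maternally expressed and 0 of 3 tissue- or transcript-dependent genes, in which any listed promoter counted. The 4 windows shown held 17, 17, 27 and 23 CpG dinucleotides in the order shown, against a median of 7 over all promoters. The other listed Gnas promoters held 16, 28 and 40, and the counts do not show which Gnas promoter was in use. The YY1 motif described at Peg3 was found in the promoters of 0 of the 26 genes and in 0.268% of all promoters.

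Libraries held between 26126694 and 43265614 counts, and the lowest total was that of cKO library 1. Every cKO library had fewer counts than every WT library, with at most 35390560 in cKO and at least 35750784 in WT. Depth therefore differed along with the genotype label. Dis3l2 had 31.7 ± 1.65 CPM (counts divided by the scaled library size in units of 1e6) in cKO and 31.9 ± 0.929 CPM in WT testes (SD, n = 3 each). Its log2 fold change of -0.01 (edgeR adjusted p = 0.956) over the whole gene does not check the genotype labels. All 12 germ cell markers were lower in cKO, with a summed level of 635 to 674 CPM in cKO and 1198 to 1260 CPM in WT libraries. Tex15 (-1.21) and Ddx4 (-1.05) had the lowest p among them. Of the markers of other cells, 3 of 10 Sertoli cell genes rose and 1 fell, and 3 of 8 fetal Leydig cell, 4 of 7 macrophage and 1 of 6 endothelial genes rose. Of 8 interstitial stroma genes 1 rose and 2 fell, and 0 of 5 peritubular myoid genes passed. Over all 20153 genes tested, 3.4% rose and 4.94% fell. In whole testes, fewer cells of a type and less RNA per cell cannot be told apart, and the part of these shifts in the results on imprinted genes was not tested. cKO library 1 stood apart. It was the highest of the 6 libraries for 13 of the 32 imprinted genes tested (40.6%), against 22.9% of all genes tested. Over 1135 olfactory receptor genes, which serve as a low background level, it had 0.0547 RPKM (CPM per kilobase of gene model). The other cKO libraries had 0.00982 and 0.00883 RPKM, and the WT libraries 0.0211 to 0.025 RPKM. These background values used plain library sizes without the scaling. The part of this background in the results was not tested.

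More imprinted genes were higher than lower in cKO testes. Of 32 genes tested, 5 rose (15.6%, against 3.4% of the 20153 genes tested) and 1 fell (3.12%, against 4.94% of all genes). A gene counted as risen or fallen at a Benjamini-Hochberg adjusted p under 0.05 in the edgeR quasi-likelihood test over all genes kept, and log2 fold changes are cKO over WT. Those that rose were Nnat, Peg13, Mest, Peg10 and Gnas, and the gene that fell was Ascl2. The other 26 did not pass. Slc22a18 passed the filter on low counts only through the WT libraries, so that it had to differ, and it is left out of the next counts. Of the other 31 genes, 13 had an unadjusted p under 0.05 (41.9%, against 23.3% of all genes tested), and for 10 the cKO and WT libraries did not overlap (32.3%, against 28.2%). Their median log2 fold change was 0.10, beside 0.01 over all genes tested, with 22 above 0 and 9 below, while 51.7% of all genes lay above 0. The count of genes that rose was 2 when cKO library 2 or any WT library was left out, and 6 without cKO library 1. Snurf could not be tested. It had 0 counts in all libraries. Its whole gene model is shared on the same strand with Snrpn and Gm38393, and reads over more than 1 gene were not counted, so none could be assigned to it.

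**Figure D1:**
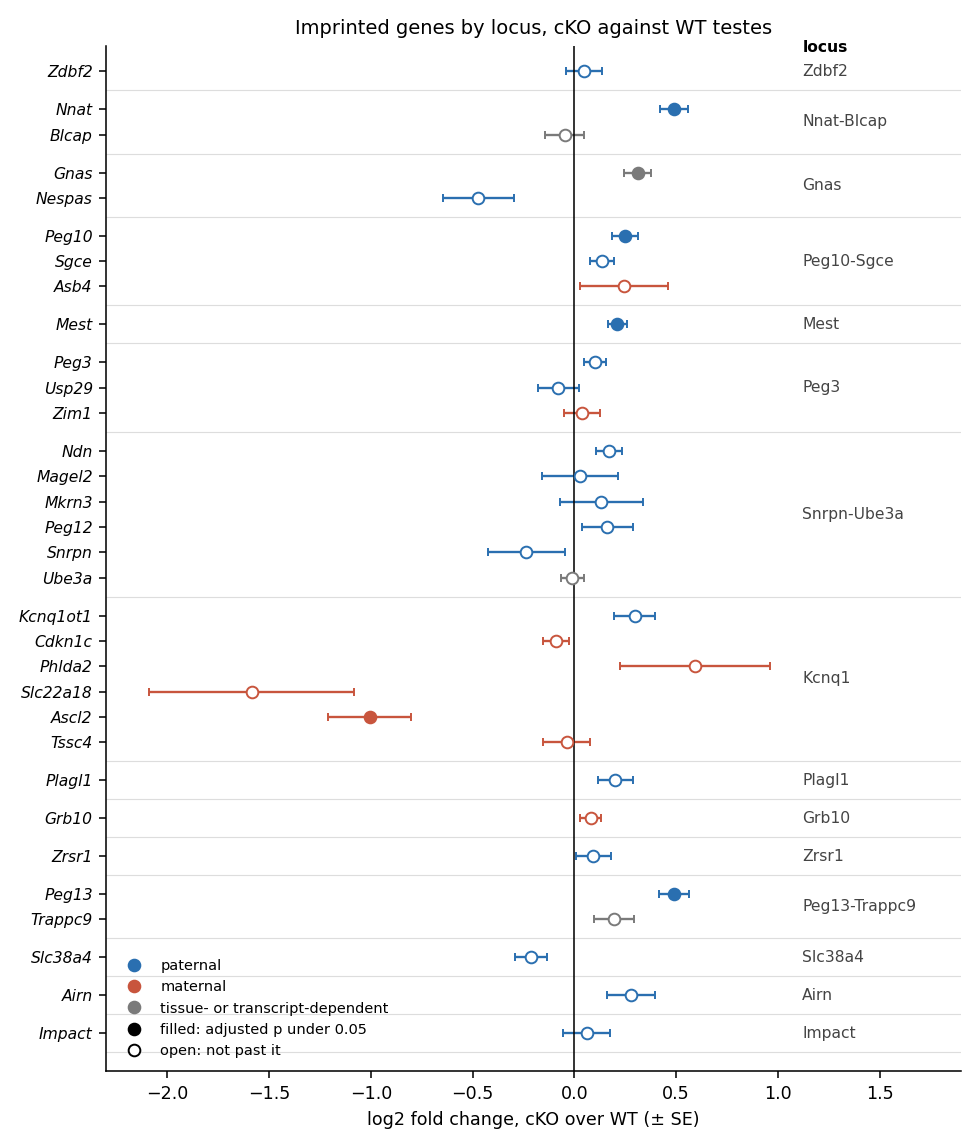
Log2 fold change of cKO over WT (x axis, with SE bars, n = 3 libraries each) for the 32 genes tested, arranged by locus. Blue marks paternally expressed, red maternally expressed and grey tissue- or transcript-dependent genes, and filled points passed an adjusted p of 0.05: Nnat, Gnas, Peg10, Mest and Peg13 to the right of 0 and Ascl2 to the left.

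Nnat was among the largest changes. It encodes neuronatin, a small membrane protein of the endoplasmic reticulum, and is a paternally expressed gene inside an intron of Blcap (chr2:157560078-157562522, GRCm38, plus strand). Nnat had 58.5, 62.9 and 58.9 CPM in cKO libraries 1, 2 and 3, against 44.3, 39.4 and 44.8 CPM in the WT libraries. Every cKO library lay above every WT library. The log2 fold change was 0.49 (SE 0.07, edgeR adjusted p = 0.00113), and the call held without any single library. Its host Blcap, which encodes a protein associated with bladder cancer in humans, had 16.6 ± 1.30 CPM in cKO and 17.2 ± 1.38 CPM in WT (SD, n = 3 each), and the groups overlapped (log2 fold change -0.05).

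The Gnas locus held genes on both sides of 0. Gnas encodes the stimulatory G protein alpha subunit, and its gene model also takes in the maternally expressed Nesp and the paternally expressed XL transcripts, which the counts do not separate (chr2:174284320-174346744, plus strand). Gnas had 3995, 3623 and 3210 CPM in the cKO libraries, against 2944, 2910 and 2878 CPM in the WT libraries. The groups did not overlap, and cKO library 1 was the highest. The log2 fold change was 0.31 (SE 0.07, edgeR adjusted p = 0.0126), and 0.23 without cKO library 1 (edgeR adjusted p = 0.000937). The call was lost without cKO library 2 (edgeR adjusted p = 0.0522) and without WT library 1, 2 or 3 (0.0562, 0.0717 and 0.0637). Nespas, the antisense non-coding RNA of the locus, had 2.70, 3.01 and 2.49 CPM in cKO, against 3.33, 4.18 and 3.87 CPM in WT. These groups did not overlap either, with cKO on the lower side, but the gene did not pass (log2 fold change -0.47, SE 0.17, edgeR adjusted p = 0.123). Of the Nespas exon bases, 38.5% lie opposite another gene, chiefly Gnas, and reads were counted by strand. Gm20721, a predicted gene opposite Gnas singled out after its values were seen, had 33.4, 25.4 and 22.5 CPM in cKO and 14.7, 18.4 and 14.6 CPM in WT (log2 fold change 0.76, edgeR adjusted p = 0.00593). The part of reads from the far more abundant Gnas in that count was not tested.

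Peg10 and Sgce, which start next to each other and run in opposite directions on chromosome 6, are both paternally expressed. Peg10, a gene derived from a retrotransposon and needed for the placenta, had 345, 380.1 and 389 CPM in cKO, against 291, 317 and 330.4 CPM in WT (chr6:4747306-4760517, plus strand). The lowest cKO library lay above the highest WT library. Its log2 fold change was 0.25 (SE 0.06, edgeR adjusted p = 0.0285). The call was lost without cKO library 2 or 3 (edgeR adjusted p = 0.128 and 0.0802) and without WT library 1, 2 or 3 (0.14, 0.117 and 0.0534). Sgce, which encodes a sarcoglycan, had 84.4 ± 4.88 CPM in cKO and 76.9 ± 1.56 CPM in WT (SD, n = 3 each), with no overlap, and did not pass (log2 fold change 0.13, edgeR adjusted p = 0.197). Asb4, a maternally expressed ubiquitin ligase subunit gene of the same locus, had 2.58 ± 0.585 CPM in cKO and 2.18 ± 0.0468 CPM in WT (SD, n = 3 each). Its groups overlapped and its log2 fold change of 0.24 had an SE of 0.22.

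Mest, also called Peg1, is a paternally expressed gene for a hydrolase-like membrane protein and a regulator of growth (chr6:30723547-30748465, plus strand). It had 217, 221 and 221 CPM in the cKO libraries, against 193, 188 and 189 CPM in the WT libraries. The groups were apart and each was tight. The log2 fold change was 0.21 (SE 0.05, edgeR adjusted p = 0.0157). The call was lost without cKO library 2 (edgeR adjusted p = 0.0794) or without WT library 1, 2 or 3 (0.0555, 0.104 and 0.0855), while the fold change stayed between 0.20 and 0.22.

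**Figure D2:**
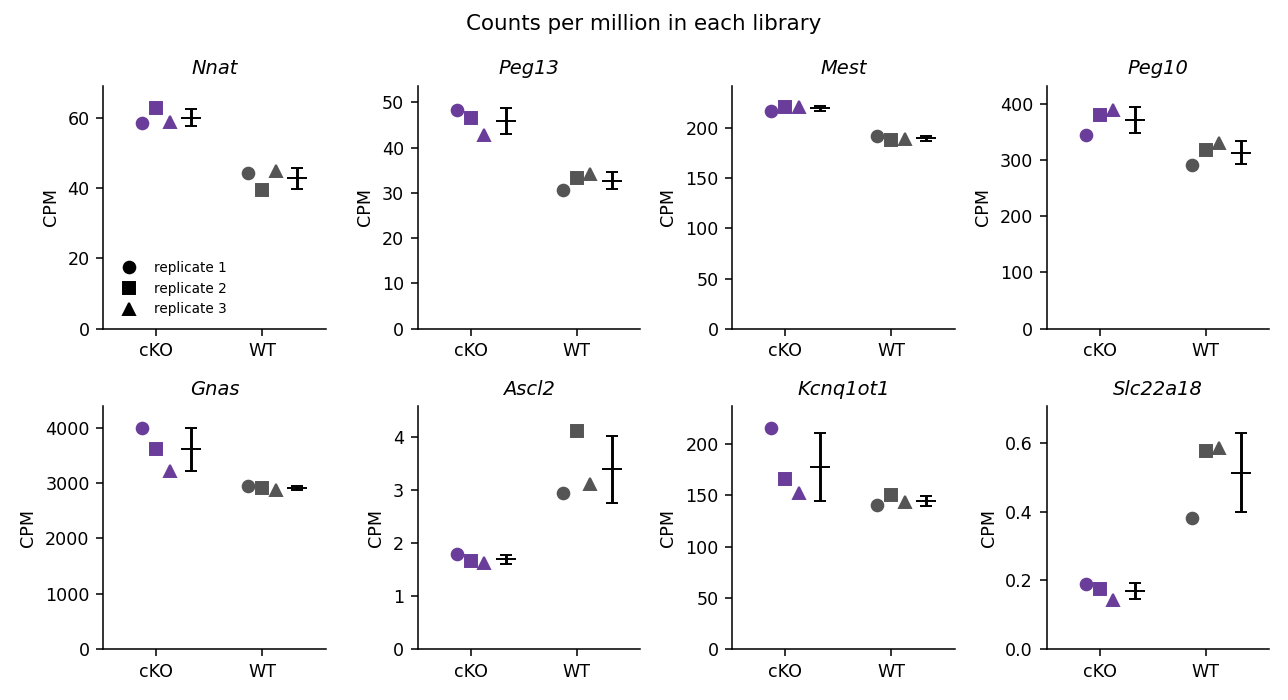
CPM (y axes, starting at 0) in each cKO library (purple, left) and WT library (grey, right) for 8 imprinted genes, with the mean and SD of each group as a bar. Nnat, Peg13, Mest, Peg10 and Gnas were higher and Ascl2 lower in cKO, and Kcnq1ot1 and Slc22a18 did not pass the test. Marker shapes give the replicate number.

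On chromosome 7, neither the Peg3 cluster nor the Prader-Willi and Angelman cluster held a gene that passed. Peg3, a paternally expressed zinc finger gene with a role in maternal behaviour and growth, had 1092, 959.9 and 973.0 CPM in cKO, against 969, 933 and 917 CPM in WT (log2 fold change 0.10). Its neighbours were Zim1 (0.04), maternally expressed, and Usp29 (-0.08), which encodes a deubiquitinase. The groups of all 3 genes overlapped.

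In the Prader-Willi and Angelman cluster, the log2 fold changes of 6 genes ran between -0.24 and 0.17. Ndn (necdin), which restrains cell proliferation, had 159, 161 and 144 CPM in cKO, against 129, 138 and 145 CPM in WT (log2 fold change 0.17, edgeR adjusted p = 0.122). The lowest cKO library was just inside the WT range. The other paternally expressed genes, Magel2 (0.03), Mkrn3 (0.13), Peg12 (0.16) and Snrpn (-0.24), had SE values of 0.13 to 0.20 at means of 2.76 RPKM or less in WT. Of the Snrpn exon bases, 27.28% are shared on the same strand with Gm38393 and Snurf. Reads over several genes were not counted, so the Snrpn level and fold change leave out reads from those bases. Ube3a, the ubiquitin ligase lost in Angelman syndrome and imprinted in neurons, had 219 ± 13.8 CPM in cKO and 220.4 ± 7.81 CPM in WT (SD, n = 3 each; log2 fold change -0.01).

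The Kcnq1 locus held the gene that fell. Ascl2, a maternally expressed transcription factor needed for the spongiotrophoblast of the placenta, had 1.79, 1.66 and 1.63 CPM in cKO, against 2.95, 4.12 and 3.12 CPM in WT (chr7:142966829-142969264, minus strand). The cKO libraries were close together and all below the WT libraries. The log2 fold change was -1.01 (SE 0.20, edgeR adjusted p = 0.01). It rests on 47, 57 and 57 counts in cKO and 124, 179 and 112 counts in WT. Without WT library 2, which had the highest value, it was -0.84 and did not pass (edgeR adjusted p = 0.0737).

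Kcnq1ot1, the long paternal RNA that silences this cluster in cis, had 215, 166 and 152 CPM in cKO, against 140.2, 150.1 and 144 CPM in WT (chr7:143203458-143296549, minus strand). The groups did not overlap, and most of the distance came from cKO library 1. The log2 fold change was 0.30 (SE 0.10, edgeR adjusted p = 0.0956), and 0.13 without cKO library 1 (edgeR adjusted p = 0.0884). It passed in DESeq2 (adjusted p = 0.0268), with no filter on low counts in edgeR (adjusted p = 0.00123) and without cKO library 3 in edgeR (adjusted p = 0.02). Slc22a18, a maternally expressed transporter gene, had 5, 6 and 5 counts in the cKO libraries and 16, 25 and 21 counts in the WT libraries (log2 fold change -1.59, SE 0.50, edgeR adjusted p = 0.0771). Since it was kept only because of the WT libraries, its difference is given without further reading. The growth restrainer Cdkn1c, a maternally expressed inhibitor of cyclin-dependent kinases, had 97.9 ± 7.33 CPM in cKO and 104 ± 2.72 CPM in WT (SD, n = 3 each; log2 fold change -0.09, edgeR adjusted p = 0.434). Phlda2, which limits placental growth, was measured at 0.875 ± 0.216 CPM in cKO and 0.580 ± 0.116 CPM in WT (SD, n = 3 each), with an SE of 0.37 around a log2 fold change of 0.59. Tssc4, which acts in the assembly of the splicing machinery, had a log2 fold change of -0.04.

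Peg13, a paternally expressed non-coding RNA in an intron of Trappc9 (chr15:72805600-72810324, minus strand), changed about as much as Nnat. It had 48.4, 46.6 and 42.8 CPM in cKO, against 30.6, 33.3 and 34.2 CPM in WT. The groups were well apart. The log2 fold change was 0.49 (SE 0.07, edgeR adjusted p = 0.00175) and passed without any single library, with adjusted p between 0.000165 and 0.018. Its host Trappc9, a subunit gene of a vesicle tethering complex, had 34.6, 38.1 and 43.0 CPM in cKO, against 38.0, 31.6 and 31.6 CPM in WT. These overlapped (log2 fold change 0.19, edgeR adjusted p = 0.256), and Trappc9 passed without cKO library 1 (edgeR adjusted p = 0.0375). Peg13 is intronic on the same strand as Trappc9, so reads of the unspliced host cannot be told apart from Peg13 reads in these counts.

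At the remaining loci, each with a single gene, none passed in edgeR with all libraries and the filter on low counts. Plagl1, a paternally expressed zinc finger gene that regulates other imprinted genes, had 1525, 1300.0 and 1118 CPM in cKO, against 1120.0, 1151 and 1158 CPM in WT. Its cKO libraries spread widely around the tight WT values, with a log2 fold change of 0.20 (edgeR adjusted p = 0.182). Without cKO library 3 it was 0.30 and passed (edgeR adjusted p = 0.0115), and it passed with no filter on low counts (edgeR adjusted p = 0.0183). Slc38a4, a paternally expressed amino acid transporter gene, had 42.1, 35.2 and 42.3 CPM in cKO, all below the 45.4, 46.9 and 46.4 CPM in WT. It did not pass (log2 fold change -0.21, edgeR adjusted p = 0.119) except without cKO library 1 (edgeR adjusted p = 0.0225). Airn, the non-coding RNA that silences Igf2r in cis, had 17.7 ± 2.81 CPM in cKO and 14.6 ± 1.38 CPM in WT (SD, n = 3 each; log2 fold change 0.28, edgeR adjusted p = 0.187). The growth inhibitor gene Grb10 (0.08), the splicing gene Zrsr1 (0.09), the translation regulator gene Impact (0.06) and Zdbf2 (0.05), a postnatal growth gene, had overlapping groups.

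By parental allele, 4 of the 6 calls were paternally expressed genes, 1 was transcript-dependent and 1 maternally expressed. Of 20 paternally expressed genes tested, 4 rose (20%, against 3.4% of all genes) and 0 fell (against 4.94%). In this class 16 had fold changes above 0 (80%, against 51.7%) and 4 below, and the median log2 fold change was 0.13. Without cKO library 1 that median was 0.08. Of 8 maternally expressed genes, 0 rose and 1 fell (12.5%). Without Slc22a18, 4 lay above 0 and 3 below, with a median of 0.04, and with it the median was -0.0005. The medians and counts describe the lists, and no test of the difference between the classes was run. Summed over the class, paternally expressed genes had 4000, 3601 and 3391 CPM in cKO, against 3215, 3256 and 3264 CPM in WT. Maternally expressed genes together had 824, 719 and 722 CPM in cKO, against 741, 743 and 719.9 CPM in WT. The paternal sums did not overlap and the maternal sums did. The largest parts of the paternal sum were Plagl1 (mean of 1314 CPM in cKO and 1143 CPM in WT) and Peg3 (1008 and 940 CPM). Neither of these genes passed, their groups overlapped, and both were highest in cKO library 1.

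Within loci, a paternally expressed gene was set against a neighbour in the same library, in 10 pairs. The neighbour was either maternally expressed (Asb4, Zim1, Cdkn1c and Phlda2) or tissue- or transcript-dependent (Blcap, Gnas, Ube3a and Trappc9). The log2 CPM of Nnat minus that of Blcap was 1.85 ± 0.16 in cKO and 1.32 ± 0.16 in WT (SD, n = 3 each), a difference of 0.54. Kcnq1ot1 minus Cdkn1c was 0.85 ± 0.18 in cKO and 0.47 ± 0.05 in WT, a difference of 0.38, and Ndn minus Ube3a was -0.50 ± 0.05 in cKO and -0.68 ± 0.07 in WT, a difference of 0.18. In these 3 pairs the paternally expressed gene was higher relative to its neighbour in cKO, without overlap of the libraries. Among the neighbours in these 3 pairs, only Cdkn1c is maternally expressed. The share of pairs without overlap over all genes was not computed. For single genes it was 28.2% of all genes tested. Pairs that share Kcnq1ot1, Ube3a or Asb4 are not independent. Nespas minus Gnas moved the other way, with -10.34 ± 0.15 in cKO and -9.57 ± 0.18 in WT. For each of these 4 pairs the exact permutation test (two-sided) gave p = 0.1, which is the lowest possible with 3 libraries a group, and 0.25 after Benjamini-Hochberg adjustment over the 10 pairs. The other 6 pairs overlapped, with differences between -0.26 and 0.30 and exact permutation p of 0.3 or more.

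**Figure D3:**
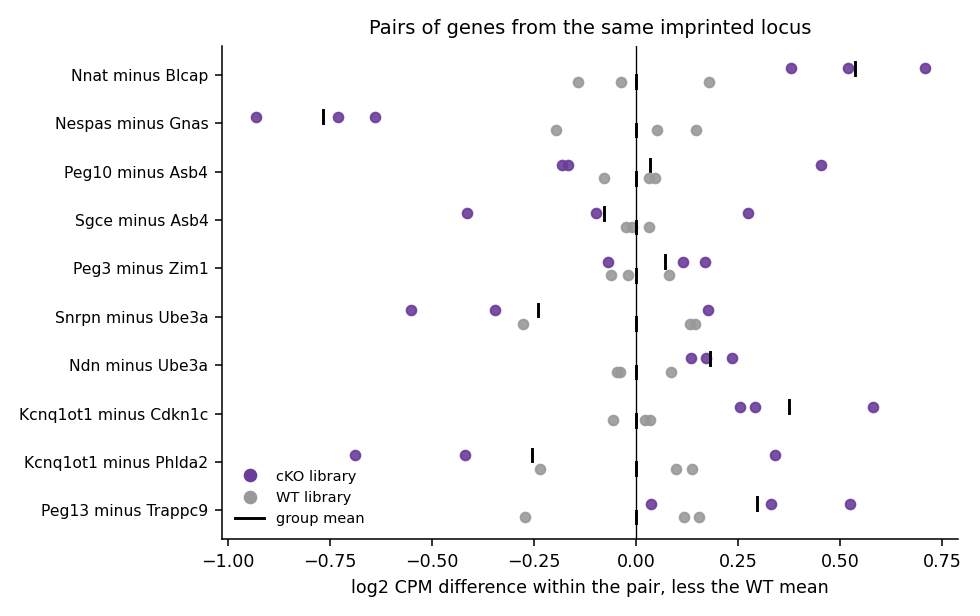
Log2 CPM difference within each of 10 gene pairs, less the WT mean of the pair (x axis), in each cKO library (purple, upper row of a pair) and WT library (grey, lower row), with group means as black ticks. Nnat minus Blcap, Ndn minus Ube3a and Kcnq1ot1 minus Cdkn1c lay to the right in all cKO libraries and Nespas minus Gnas to the left, while the other 6 pairs overlapped.

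Levels per length of gene model differed widely between the genes, with 13 of them at 10 RPKM or more in cKO and 14 in WT. Gnas stood first with 323 ± 35.1 RPKM in cKO and 260.2 ± 2.96 RPKM in WT (SD, n = 3 each). Plagl1 followed with 168 ± 26.1 RPKM in cKO and 146 ± 2.55 RPKM in WT, and Peg3 with 75.7 ± 5.46 RPKM in cKO and 70.6 ± 2 RPKM in WT. Next came Mest, Peg10, Cdkn1c, Grb10 and Ndn, with means between 41.8 and 55.7 RPKM in cKO and between 37.2 and 51.1 RPKM in WT. Several of these neighbours overlap within their SD, among them Mest and Peg10 in cKO at 55.7 ± 0.679 and 55.7 ± 3.50 RPKM. Nnat followed with 32.9 ± 1.33 RPKM in cKO and 23.4 ± 1.63 RPKM in WT. In WT it lay within its spread of Zim1, which had 25.4 ± 4.1 RPKM in cKO and 24.7 ± 0.792 RPKM in WT. At the low end, Slc22a18 had 0.0998 ± 0.0142 RPKM in cKO and 0.302 ± 0.0679 RPKM in WT. Ascl2 had 1.04 ± 0.0508 RPKM in cKO and 2.09 ± 0.389 RPKM in WT. The 33 genes took 0.916%, 0.811% and 0.749% of all counts in cKO and 0.724%, 0.723% and 0.716% in WT libraries. Without Gnas the shares were 0.514%, 0.453% and 0.432% in cKO and 0.427%, 0.43% and 0.427% in WT.

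**Figure D4:**
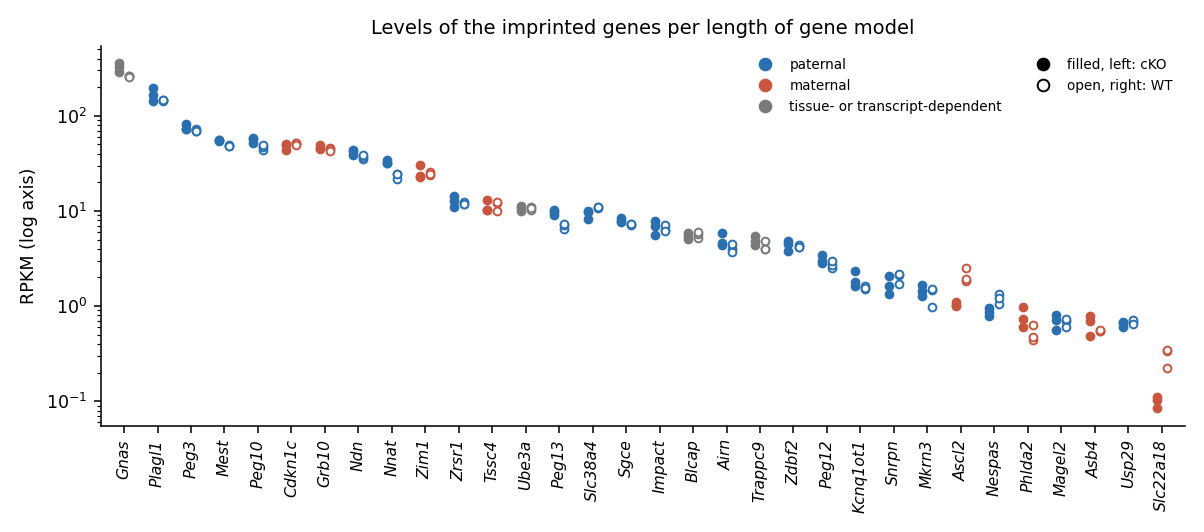
RPKM on a log axis for the 32 genes tested, ordered by level, with each cKO library as a filled point at the left and each WT library as an open point at the right of a gene. Gnas and Plagl1 were highest and Slc22a18 lowest, and colours mark the expressed allele as in the legend.

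Of 181 genes within 500 kb of the loci, members aside, 5 rose and 6 fell (6.08%, against 8.34% of all genes tested). H19 and Igf2, singled out after their values were seen, were among those that rose, and the window around the Kcnq1 locus reaches their locus. Around Nnat, Mest, Peg3, the Prader-Willi and Angelman cluster, Zdbf2, Grb10, Slc38a4 and Impact, 0 neighbours passed. Of 24 further genes described as imprinted in some tissue at the same loci, 0 passed in edgeR, DESeq2 or limma-voom. In edgeR 4 of these 24 had an unadjusted p under 0.05, against 23.3% of all genes tested. Without cKO library 1, 2 of them passed (Trpm5 and Ago2, singled out by this setting). The 24 genes had a median log2 fold change of 0.05.

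Of 13 imprinted genes tested from other loci, 1 fell (against 4.94% of all genes tested) and 12 did not pass. The gene that fell was Sfmbt2, a Polycomb-related gene imprinted in early embryo and placenta. Sfmbt2 had 49.1 ± 1.83 CPM in cKO and 67.6 ± 0.947 CPM in WT (SD, n = 3 each; log2 fold change -0.46, edgeR adjusted p = 0.000589). Of 14 genes tested that set or keep imprints, 3 fell and 0 rose, while 4.94% of all genes tested fell and 3.4% rose. Kdm1b, a histone demethylase needed for maternal imprints in the oocyte, had 39.6 ± 0.166 CPM in cKO and 57.3 ± 1.39 CPM in WT (SD, n = 3 each). Its log2 fold change was -0.53 (edgeR adjusted p = 0.000231). The DNA methyltransferase gene Dnmt3b (-0.38, edgeR adjusted p = 0.0188) and Uhrf1 (-0.26, edgeR adjusted p = 0.0295), which recruits DNMT1 to replicating DNA, fell too. Both lost the call without cKO library 2, WT library 2 or WT library 3, and Uhrf1 also without WT library 1. Dnmt1 passed as lower with library size alone as the scaling (log2 fold change -0.17, edgeR adjusted p = 0.0421). Spermatogonia express such genes, and all 12 germ cell markers fell in the same libraries. The part of that fall in these 3 genes was not tested. Zfp57, singled out as the gene of the searched motif, had 23.9 ± 2.75 CPM in cKO and 19.8 ± 0.259 CPM in WT (SD, n = 3 each; log2 fold change 0.27, edgeR adjusted p = 0.104), and it passed as higher without cKO library 3 (edgeR adjusted p = 0.0354).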

How the data were processed

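RNA of mouse testes at postnatal day 4 was measured in 3 cKO and 3 WT libraries. The authors deposited raw counts of single reads per gene, made with featureCounts 1.6.4 and GENCODE M18 in a strand-aware setting, per the file headers. Reads with several mapping places or several genes were left out. Trimming with cutadapt and mapping with HISAT2 to GRCm38.p5 are named in the submitters' processing notes. The molecule field names polyA RNA while the protocol describes transcript depletion and mixed priming, which is not settled here. Columns left without a sample numbered 0. Symbols came from GENCODE M21 for 54165 of 54232 genes.

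A filter on low counts (filterByExpr of edgeR, with 10 as the minimum count and 15 as the minimum total) left 20153 genes, and TMM gave the scaling. Groups were tested in edgeR 4.0.16 (R 4.3.3) by quasi-likelihood, two-sided, with genotype alone in the design and Benjamini-Hochberg adjustment over all genes left. CPM and RPKM use the TMM-scaled library sizes and the deposited gene lengths, and pairs used log2 CPM with a prior count of 2. Only the RPKM over olfactory receptor genes uses plain library sizes. Named are all 33 members, Dis3l2, every called gene of the other imprinted and regulator lists and at most 2 called genes per marker list. Also named are genes said to be singled out, Dnmt1, Malat1 and genes that only describe a member or its reads. The procedure was tested on simulated data.

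Results were recomputed with size factors of DESeq2 or plain library sizes, with no filter or one of 1 CPM in 3 libraries, with DESeq2 1.42.0, voom of limma 3.58.1, a robust fit or a block for the replicate number, and without each library. Further settings left out composition genes (mitochondrial, haemoglobin, ribosomal protein and small RNA), used a prior count of 0.5, or used windows of 250 and 1000 kb. Figures were drawn with matplotlib 3.10.9. The members, lists and tests were chosen with earlier results of these data known.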

Additional observations from a re-analysis of the deposited data

How the results depend on the processing

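The 5 rises and 1 fall among the imprinted genes were found under both other scalings, both other filters, with limma-voom, with DESeq2, in the robust fit and without composition genes, except that Kcnq1ot1 (DESeq2 and no filter) and Plagl1 (no filter) passed in addition. With single libraries left out, the genes that rose numbered 2 to 6 and those that fell 0 to 2, while over all genes 236 to 1670 rose and 387 to 1705 fell. The median of the paternally expressed genes then ran from 0.0808 to 0.17, and that of the maternally expressed genes from -0.0459 to 0.0589. The maternal median was 0.0005 with at least 1 CPM in 3 libraries and 0.0001 with composition genes left out, against -0.0005, so its sign is not settled. Leaving out Slc22a18, chosen after seeing the data, gave 0.0376. Fold changes whose sign turned when a library was left out were small: Zdbf2 (-0.039 to 0.14), Blcap (-0.11 to 0.0043), Zim1 (-0.11 to 0.11), Magel2 (-0.10 to 0.16), Mkrn3 (-0.0517 to 0.24), Ube3a (-0.057 to 0.0322), Tssc4 (-0.17 to 0.0223), Zrsr1 (-0.0093 to 0.19) and Impact (-0.048 to 0.18). The differences of Peg10 minus Asb4 (-0.17 to 0.14) and Sgce minus Asb4 (-0.26 to 0.0885) turned as well. Within 250 kb of the loci 2 of 110 genes rose, against 5 of 181 within 500 kb, and within 1000 kb 11 of 289 fell, against 6 of 181. The windows differ in the number of genes, and the share called was 6.36%, 6.08% and 6.23% within 250, 500 and 1000 kb. With each library left out in turn, fewer samples enter the fit.

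With the replicate number as a block, 5 imprinted genes rose and 1 fell, and 740 and 1058 of all genes did, against 685 and 996 without the block. Deviations of libraries with the same number had correlations of 0.0313, 0.0126 and 0.0652, and those with different numbers ran from -0.0541 to 0.0225. Not every library correlated best with its own number, since WT library 2 did so with cKO library 1 (0.0225). These small values do not settle if samples with the same number were paired. Low counts limit Slc22a18, Phlda2, Asb4, Ascl2, Nespas, Magel2, Mkrn3 and Snrpn, and Snrpn also lacks reads from its shared exon bases. For genes that did not pass, a change is not shown to be absent.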

Other observations

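Another nuclear non-coding RNA, singled out after its values were seen, rose more than any of the imprinted non-coding RNAs. Neat1, the scaffold RNA of paraspeckles, had 55.0, 46.9 and 46.8 CPM in cKO, against 24.9, 23.2 and 24.6 CPM in WT. The groups were far apart, with a log2 fold change of 1.03 (SE 0.08, edgeR adjusted p = 1.26e-05). Malat1, which lies next to it, had 4457, 3389 and 3007 CPM in cKO, against 3044, 2783 and 2822 CPM in WT. Its groups overlapped, cKO library 1 was again the highest, and it did not pass (log2 fold change 0.33, edgeR adjusted p = 0.0867).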
